A study of Mus musculus with 2 samples.

Results

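The genes described here are the iron and haem handling genes Fth1, Ftl1, Hmox1, Slc40a1, Slc11a1, Tfrc, Blvrb and Hp, taken by symbol from the feature list. They are 8 of 55450 features, and all 8 symbols were found. The study compared peritoneal macrophages of mice without and with the gene Ankrd22. It held 2 single-cell RNA libraries, 1 from Ankrd22-/- mice made with CRISPR/Cas9 (knockout) and 1 from Ankrd22+/+ mice (wild type). Both came from peritoneal lavage cells sorted by flow cytometry for F4/80, a macrophage surface antigen encoded by Adgre1. No treatment is named in the labels, and strain, age, sex, the number of animals pooled and the deleted part of Ankrd22 are not given in the sources used here. Each genotype had 1 library, so there was neither a replicate nor a test. Every difference below is between these libraries or between ranges of cells within a library, and every interval is a 95% interval for counting error only.

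Macrophages take up iron on transferrin, through the transferrin receptor, and as haem from red cells and haemoglobin. Haem oxygenase opens the haem ring and frees the iron, which is then stored inside the ferritin shell of heavy and light chains or leaves the cell through ferroportin. When iron is scarce, iron regulatory proteins bind a hairpin, the iron responsive element, in several of these transcripts: in the 5′ untranslated region it holds back translation, and in the 3′ untranslated region it protects the transcript from decay. A count of transcripts therefore does not measure the ferritin or ferroportin protein.

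The hairpins of the members are shown because they set the genes whose RNA level is known to follow iron (Tfrc) apart from those controlled by iron mainly at translation. The search was for a C, 5 further bases, the loop CAGTGN and 5 bases that pair with the 5 before the loop, on the transcript strand only (A with T, G with C or T), in untranslated regions of the mouse GRCm38 assembly. Capitals mark the loop. The Fth1 match lies at chr19:9982732-9982760 on the plus strand, the Ftl1 match at chr7:45459779-45459807 on the minus strand and the Slc40a1 match at chr1:45925465-45925493 on the minus strand, each in the 5′ untranslated region. The 4 Tfrc matches lie in its 3′ untranslated region on the plus strand, at chr16:32631219-32631247, chr16:32631598-32631626, chr16:32631663-32631691 and chr16:32631710-32631738, in the order shown.
Fth1: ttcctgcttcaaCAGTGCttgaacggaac
Ftl1: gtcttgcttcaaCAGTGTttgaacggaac
Slc40a1: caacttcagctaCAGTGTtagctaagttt
Tfrc site 1: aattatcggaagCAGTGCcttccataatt
Tfrc site 2: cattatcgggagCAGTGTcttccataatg
Tfrc site 3: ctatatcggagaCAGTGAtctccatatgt
Tfrc site 4: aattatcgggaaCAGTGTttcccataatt
Such a match was found in the 5′ untranslated region of 28 of 20831 genes (0.134%) and in the 3′ untranslated region of 127 of 21589 genes (0.588%). Hmox1, Slc11a1, Blvrb and Hp held no match. A match is a description of the letters and not a measured site.

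The knockout library held 6706 barcodes and 110956482 UMIs (unique molecular identifiers, each standing for 1 captured transcript), and the wild type library 6315 barcodes and 96869041 UMIs. After cell filters and doublet removal 6036 and 5946 cells were kept, and 15 barcode sequences occurred in both libraries. The median mitochondrial share was 1.47% in knockout cells and 0.685% in wild type cells. Ankrd22 had 0 UMIs in both libraries, so it does not check the labels. Cells were put in ranges by their UMIs per 10000 in fixed gene sets. Class II low cells had under 25 from 4 MHC class II genes, the intermediate range ran from there to 100, and class II high cells had 100 or more. Cycling cells had 10 or more from genes of S phase or of G2 and mitosis, and barcodes with 5 or more from B cell genes were set aside. The sort was labelled as macrophages, and the 6 pan-macrophage markers were all seen in both libraries, at a summed level of 27123 CPM (UMIs scaled to a total of 1000000 per range) in knockout cells and 62557 CPM in wild type reference cells. These reference cells, class II low and outside the cycling ranges, were 5497 knockout and 5307 wild type cells. Of the summed level Lyz2 alone made up 25717 and 61117 CPM, and Adgre1, the gene of the sorted antigen, was at 626 and 694 CPM. Class II high cells were 62 and 54, S phase cells 192 and 78, and G2 and mitosis cells 104 and 193. They are ranges of a score and not cell types: 160 knockout and 334 wild type cells lay between 0.5 times the lower class II limit and that limit, and 93 and 169 between it and 50.

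Between the libraries, Hmox1 was the member that stood furthest apart, lower in the knockout, while the ferritin chains shifted in opposite directions in CPM. Of the 6 members at 20 CPM or more, 0 were at least 1.5-fold higher in knockout reference cells, where 11.5% of the 5037 genes at that level were. At least 1.5-fold lower was 1 member, Hmox1, where 4.09% of genes were. The median log2 ratio was -0.12 for these members and 0.21 for all such genes. Scaling by edgeR's TMM factors or by the median of gene ratios lowered all log2 ratios by 0.28. With the median of ratios, 26.8% of the called genes were on the higher side in place of 73.8%, Ftl1 changed side, and Fth1 joined Hmox1 past 1.5-fold lower.

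Fth1 encodes the ferritin heavy chain, which oxidises iron as it enters the shell, and Ftl1 the light chain, which aids the forming of the iron core. In reference cells Fth1 (chr19:9980598-9985098, plus strand, GRCm38) was at 66.9 UMIs per cell in knockout cells and 75.1 in wild type cells. On the CPM scale this was 4049 and 5104 (log2 ratio -0.33, interval -0.34 to -0.33). Ftl1 (chr7:45457944-45459884, minus strand) was at 82.6 and 61.3 UMIs per cell, or 4994 and 4169 CPM (0.26, 0.25 to 0.27). The log2 ratio was -0.62 for Fth1 and -0.02 for Ftl1 with both other scalings, so the side of Ftl1 depends on the scaling while Fth1 stayed lower. The processed copy Ftl1-ps1, which can share reads with Ftl1, was at 32.0 and 15.1 CPM.

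The share of Fth1 among Fth1 plus Ftl1 UMIs does not depend on scaling. It is compared here only between groups of cells, since 2 transcripts can be captured unequally. It was 44.8% in knockout and 55.0% in wild type reference cells, with intervals of 44.7 to 44.9% and 54.9 to 55.2%. Over single cells the median was 44.6% and 55.7%, and the range from the 10th to the 90th percentile was 30.9 to 62.7% and 40.9 to 71.7%. The distributions thus overlapped widely and were shifted as a whole. The 2 genes together made up 0.904% and 0.927% of UMIs. In both libraries the share was lower in deeper cells: over 5 bins of cells by UMI total it went from 57.4% to 40.8% in knockout cells and from 63.5% to 51.7% in wild type cells. It was lower in the knockout library in each of the 5 bins.

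**Figure D1:**
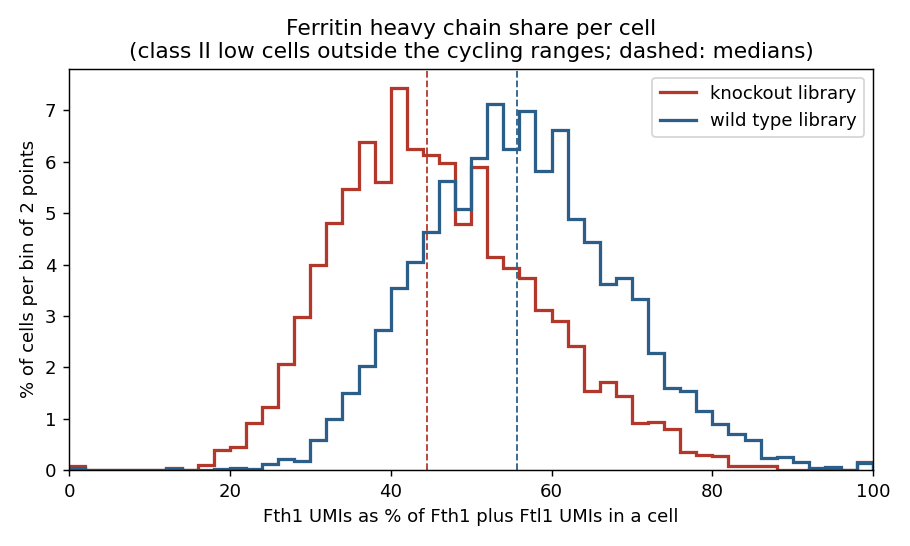
Distribution over cells of Fth1 UMIs as a percent of Fth1 plus Ftl1 UMIs (x axis), as the percent of cells per bin (y axis), in class II low cells outside the cycling ranges. The knockout curve, with a median of 44.6% (dashed), lies to the left of the wild type curve, with a median of 55.7%, and the curves overlap.

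Both chains took part in this course with depth. The CPM of Fth1 went from 5849 in the shallowest to 3435 in the deepest knockout cells and from 6076 to 4706 in wild type cells. The library difference widened along the bins, from a log2 ratio of -0.05 in the shallowest to -0.45 in the deepest. Ftl1 was at 4349 and 4990 CPM at the ends in knockout cells and at 3487 and 4394 CPM in wild type cells. Whether cell size, RNA content or capture takes part was not tested.

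**Figure D2:**
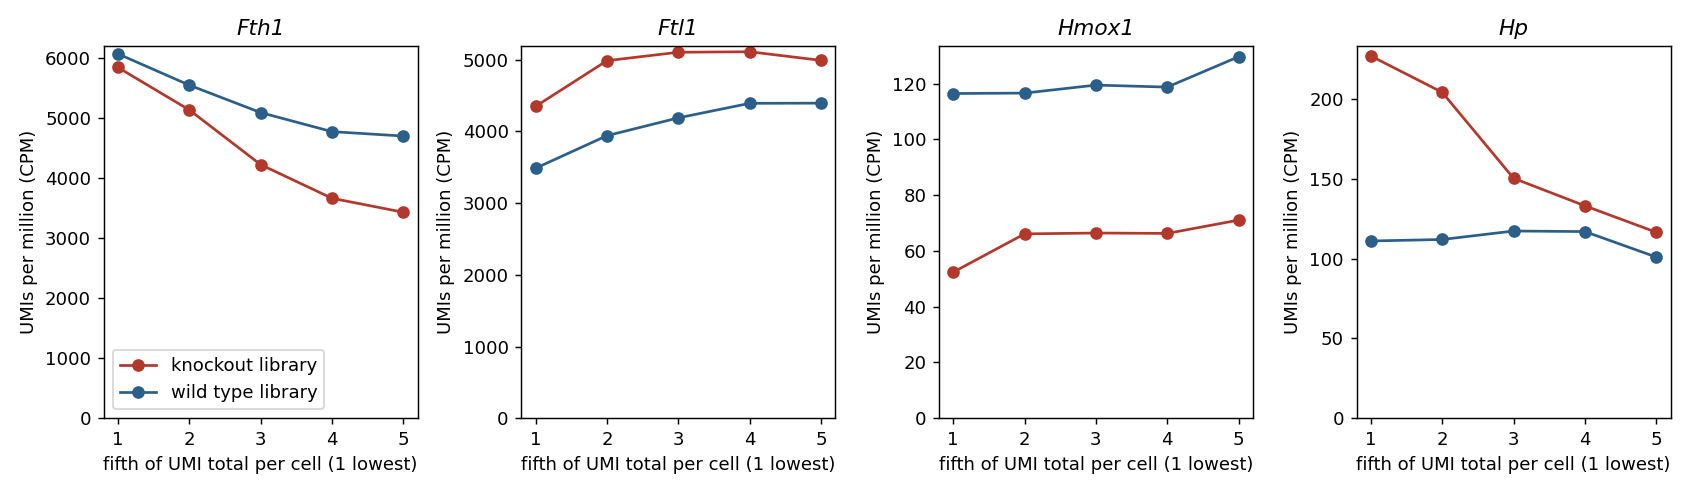
Level in CPM (y axis) of 4 genes in 5 bins of class II low, non-cycling cells by UMI total per cell (x axis, 1 the shallowest), in the knockout and wild type libraries. Fth1 is lower in deeper cells of both libraries, Hmox1 is lower in the knockout library in every bin, and Hp differs most in the shallowest bin, at 227 and 111 CPM.

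Slc40a1 encodes ferroportin, the known exporter of iron from cells. Slc40a1 (chr1:45908068-45926523, minus strand) had 0 UMIs in all cells kept of both libraries, in every class II, cycling and Hbb-bs range. In knockout reference cells a count of 0 allows up to 0.0406 CPM, and in wild type reference cells 0.0472 CPM. As shares, 0 of 6036 knockout cells allows up to 0.0611% of cells with a UMI, and 0 of 5946 wild type cells up to 0.0620%. Before filtering there were 2 Slc40a1 UMIs in all, 1 per library, both in barcodes removed as doublets. Slc40a1 was therefore not detectable in these counts, and no fold is given. Whether the annotation used for counting takes part in this 0 was not tested.

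Tfrc encodes the transferrin receptor, and its transcript was sparse. Tfrc (chr16:32608920-32632794, plus strand) had 412 UMIs in knockout and 408 in wild type reference cells, which is 4.53 and 5.23 CPM (log2 ratio -0.17, interval -0.34 to -0.00). Of reference cells, 6.64% in the knockout library and 6.84% in the wild type had a Tfrc UMI, and 0.842% and 1.10% had one after each cell was thinned to 2000 UMIs. The B-marker barcodes had 0 and 2 Tfrc UMIs. The 2 in the wild type library are 6.6 CPM (0.8 to 23.8), or 2.70% of barcodes after thinning. The 0 in the knockout library allows up to 24.8 CPM. These barcodes held 148676 knockout and 302936 wild type UMIs in all, too few to set a background for a gene this sparse. The comparison therefore cannot decide whether Tfrc stood above background, in reference cells or at 11.2 CPM in knockout cycling cells. Whether B cells hold Tfrc transcript of their own was not tested. The interval of the library difference, from the UMIs of reference cells, ended next to 0.

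Slc11a1 encodes NRAMP1, a metal transporter of the phagosome membrane. Slc11a1 (chr1:74375195-74386062, plus strand) was at 2.05 UMIs per cell in each library and at 124 CPM in knockout and 139 CPM in wild type reference cells (-0.16, -0.20 to -0.12). Its CPM ran from 124 to 145 over the knockout ranges of class II and cycling, and from 118 to 163 over those of the wild type. Barcodes with B cell genes held 1 and 11 Slc11a1 UMIs, or 6.73 and 36.3 CPM, and 9 of the 11 were in a single barcode.

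Hmox1 encodes haem oxygenase-1, which breaks haem down to biliverdin, carbon monoxide and iron. Hmox1 (chr8:75093621-75100589, plus strand) was at 1.11 UMIs per cell in knockout cells and 1.79 in wild type cells. In CPM this was 67.1 (interval 65.4 to 68.8) and 121 (119 to 124), a log2 ratio of -0.85 (-0.89 to -0.80). A UMI was present in 57.5% and 71.5% of reference cells, and in 11.8% and 20% after thinning. The barcodes with B cell genes had 0 and 2 Hmox1 UMIs, which allows up to 24.8 and 23.8 CPM. The CPM of reference cells was above that background in both libraries. After thinning, the wild type share of 20% was above the upper limit of its B-marker barcodes, 9.49%. The knockout share of 11.8% was not above its limit of 13.2%, which rests on 26 barcodes. Hmox1 was lower in the knockout library in each bin of depth, at log2 ratios from -1.14 to -0.81. The mitochondrial share differed between the libraries, and in cells with a share from 0.8 to under 1.4% the log2 ratio was -0.71. In 5 bins of that share the log2 ratio ran from -0.83 to -0.51, the last in a bin with 21 knockout cells.

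Blvrb encodes biliverdin reductase B, a reductase of haem breakdown products and flavins. Blvrb (chr7:27447978-27466144, plus strand) was at 6.62 and 6.23 UMIs per cell, or 401 and 423 CPM (-0.08, -0.10 to -0.06). Nearly every reference cell had a UMI, 97.7% in knockout cells and 96.3% in wild type cells. The members of haem breakdown thus differed: Hmox1 was past 1.5-fold and Blvrb was within it, and under the median of ratios Blvrb stayed within 1.5-fold at -0.36.

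Hp encodes haptoglobin, which binds free haemoglobin outside cells and is also a known granule protein of neutrophils. Hp (chr8:109575128-109579172, minus strand) was at 2.43 UMIs per knockout and 1.63 per wild type reference cell, or 147 and 111 CPM (0.40, 0.36 to 0.44). The difference lay mostly in shallow cells: at 227 and 111 CPM in the shallowest bin the log2 ratio was 1.02, and at 116 and 101 CPM in the deepest it was 0.20. With the other scalings it was 0.12 over all reference cells. Hp UMIs were concentrated, with 45.5% of them in the top 10% of knockout and 46.6% in the top 10% of wild type reference cells. After thinning to 5000 UMIs, the variance over the mean of its counts was 3.00 in knockout cells and 2.0 in wild type cells, beside a median gene at 1.09 and 1.08. The 8 neutrophil markers summed to 87.3 CPM in knockout and 96.2 CPM in wild type reference cells. Of these 8 markers 6 were seen in knockout and 4 in wild type reference cells. S100a8, Csf3r, Mmp9 and Camp were seen in both libraries. Ly6g and Ngp were at 0 in both, and S100a9 and Retnlg were also at 0 in the wild type. The 5 monocyte markers summed to 458 and 48.2 CPM. What part neutrophils or monocytes had in the Hp level was not tested.

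**Figure D3:**
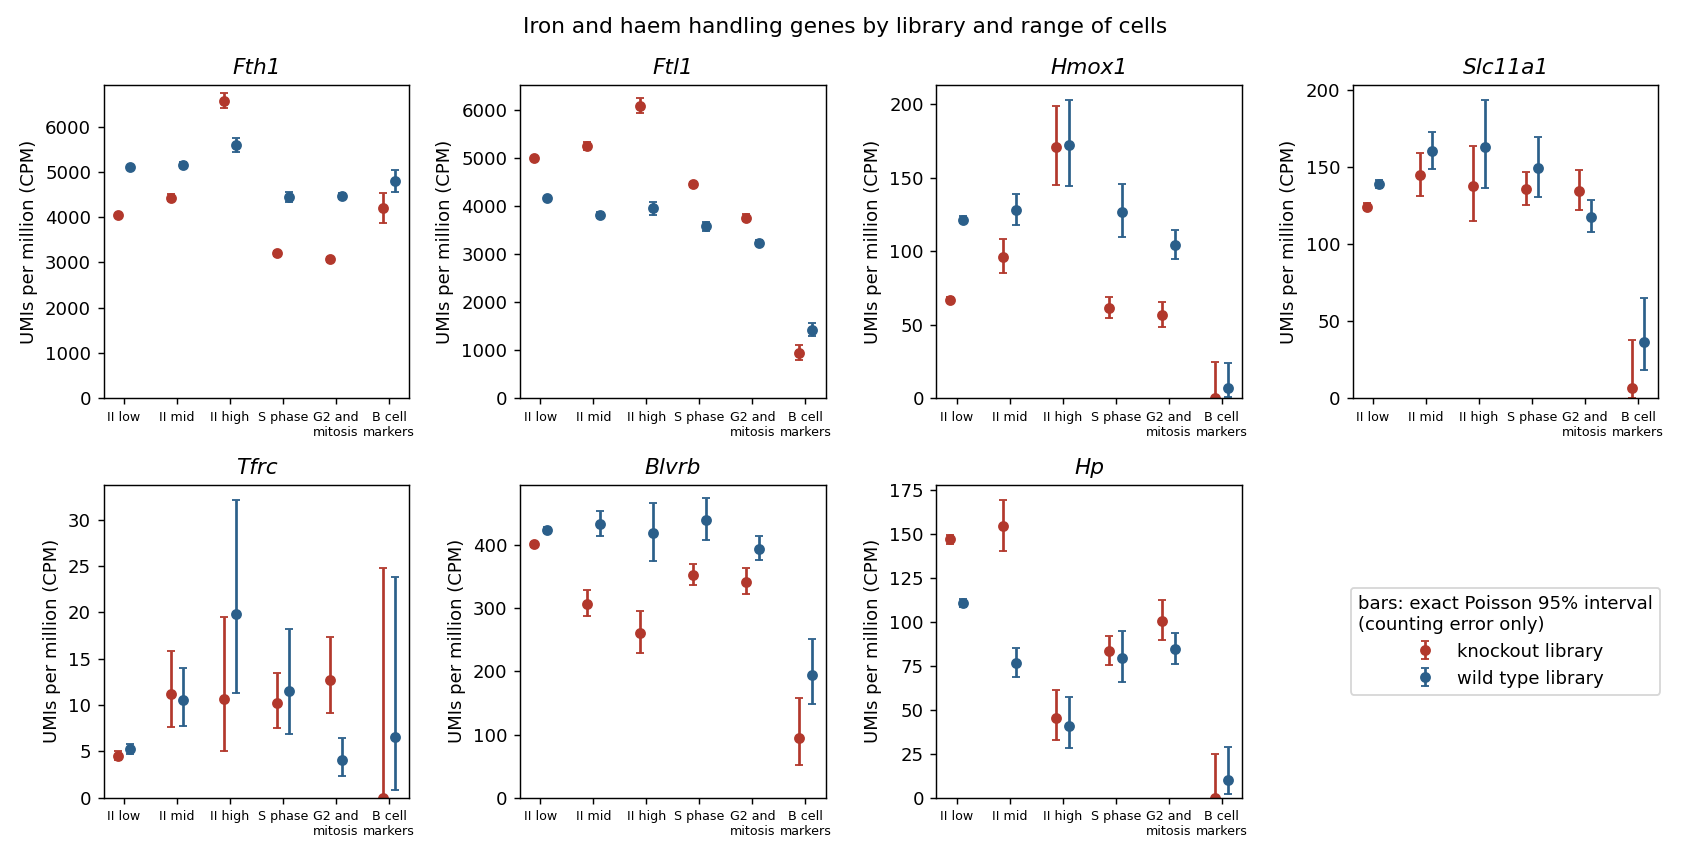
Level of the 7 detected members in CPM (y axis, from 0, own scale per panel) by range of cells (x axis) in the knockout and wild type libraries, with exact Poisson 95% intervals for counting error. II low, mid and high are the class II ranges, with II low shown outside the cycling ranges. Hmox1 stands at 67.1 and 121 CPM in II low cells and at 171 and 172 CPM in II high cells, and Hp is lowest of the macrophage ranges in II high cells.

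In class II high cells Hp was lower than in class II low cells of both libraries, and Hmox1 was higher in those of the knockout. The comparison asked how iron handling varies between the resident large macrophages and the class II high macrophages of the cavity. The median of large-macrophage markers was 145 and 133 UMIs per 10000 in class II low cells of the knockout and wild type libraries and 8.24 and 51.4 in class II high cells. In the wild type library the 54 class II high cells thus kept more of these markers. Markers of class II high macrophages had medians of 105 and 117 in the class II high range.

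In the knockout library Hmox1 was at 66.5 CPM in class II low, 96.3 in intermediate and 171 in class II high cells, a log2 ratio of 1.35 for high over low (interval 1.12 to 1.57). In the wild type library it was at 121, 128 and 172 CPM (0.51, 0.26 to 0.75). The levels of the 2 libraries were close in class II high cells as defined here and apart in class II low cells. Of these cells, 44 of the 54 wild type and 30 of the 62 knockout cells lay from 100 to under 200. In them Hmox1 was at 188 CPM in the wild type and 172 CPM in the knockout library. In the 10 wild type cells at 200 or more it was at 101 CPM, from 15 UMIs (interval 56.7 to 167), and in the 32 knockout cells at 170 CPM (134 to 212). The closeness and the wild type direction thus rested on cells near the upper limit: with limits of 50 and 200 the wild type log2 ratio was -0.25. In the knockout it stayed between 1.05 and 1.48 over the alternatives run.

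Of the class II ranges of the knockout library, Hp was lower only in the high one. It was at 142 CPM in class II low, 155 in intermediate and 45.6 in class II high knockout cells (-1.62, -2.08 to -1.20). The wild type values were 109, 76.8 and 40.9 CPM (-1.39, -1.92 to -0.91). With both limits at 0.5 times their value the knockout log2 ratio was -0.71, past 1.5-fold on the same side.

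Fth1 was at 3977 CPM in low and 6575 in high knockout cells (0.73, 0.69 to 0.76), and at 5060 and 5597 CPM in the wild type library (0.15, 0.10 to 0.19), which was -0.07 with the median of ratios. Ftl1 was at 4929 and 6091 CPM (0.31) in knockout cells and 4111 and 3950 CPM (-0.06) in wild type cells. The heavy chain share in class II high cells was 51.9% and 58.6%. Blvrb was at 397 and 261 CPM in the knockout (-0.60, -0.79 to -0.42) and at 422 and 418 CPM in the wild type library (-0.01). Tfrc rested on 10 knockout and 16 wild type UMIs in class II high cells, at 10.6 and 19.8 CPM beside 5.07 and 5.28 in class II low cells. Its wild type log2 ratio was 1.73 (0.96 to 2.41) and its knockout value 0.94, with an interval from -0.00 to 1.76.

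Of the 6 members at 20 CPM or more, 2 were at least 1.5-fold higher in knockout class II high cells, Fth1 and Hmox1, in a background of 25.6% of genes at that level. Those lower were 2, Blvrb and Hp, in a background of 10.2%. Among wild type cells 0 were higher, in a background of 14.0%, and 1 was lower, Hp, in a background of 5.29%. Tfrc lay below 20 CPM and outside these counts. It was past 1.5-fold in both libraries, but with limits of 50 and 200 its knockout value was 0.30. With TMM scaling the knockout value of Fth1 was 0.45, within 1.5-fold. Of called genes 71.6% were on the higher side in the knockout contrast and 41.9% with the median of ratios. In the wild type contrast these were 72.5% and 42.3%. The scaling shift was 0.28 and 0.22 by TMM.

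Cycling cells held less ferritin and Hp transcript per UMI than the reference cells. Knockout cycling cells held more Tfrc per UMI, though not in an equal mean over 5 bins of depth. The question was whether iron genes follow proliferation. Tfrc was at 11.2 CPM in cycling and 4.53 in reference knockout cells (1.14, 0.83 to 1.44), from 89 UMIs in 296 cells. By phase it was at 10.2 CPM in S and 12.7 in G2 and mitosis. In the wild type library it was at 6.06 and 5.23 CPM (0.18, -0.27 to 0.62), with 11.5 CPM in S phase and 4.04 in G2 and mitosis. The wild type S phase value rests on 18 UMIs and the G2 and mitosis value on 17. Cycling cells were deeper than the rest: of the 296 knockout cells, 214 fell in the deepest bin. Weighting the reference cells to that depth gave 1.0, and an equal mean over the 5 bins gave -0.19, where the shallowest 2 bins held 8 and 9 cycling cells with 0 Tfrc UMIs in either.

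Hp was at 90.2 CPM in cycling and 147 in reference knockout cells (-0.70, -0.81 to -0.59), and at 83.1 and 111 CPM in the wild type library (-0.41, -0.55 to -0.28). With the reference cells weighted to the depth of the cycling cells the log2 ratios were -0.40 and -0.33, and the knockout value was then within 1.5-fold. Fth1 had log2 ratios of -0.36 and -0.19, Ftl1 of -0.26 and -0.32, Hmox1 of -0.18 and -0.14, and Blvrb of -0.20 and -0.06, all below 0 in both libraries and under every alternative run. With an equal mean over the 5 bins of depth the knockout value of Hmox1 was -1.41, past 1.5-fold, on the same thin shallow bins as for Tfrc. For Slc11a1 the values were 0.12 and -0.14.

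Of the 6 members at 20 CPM or more, 0 were at least 1.5-fold higher in knockout cycling cells (background 12.8%) and 1 was lower, Hp (3.08%). Tfrc, past 1.5-fold, lay below that level. In the wild type contrast 0 were higher (14.4%) and 0 lower (2.62%). Of called genes 80.7% and 84.7% were on the higher side, and 67.5% and 62.4% with the median of ratios.

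**Figure D4:**
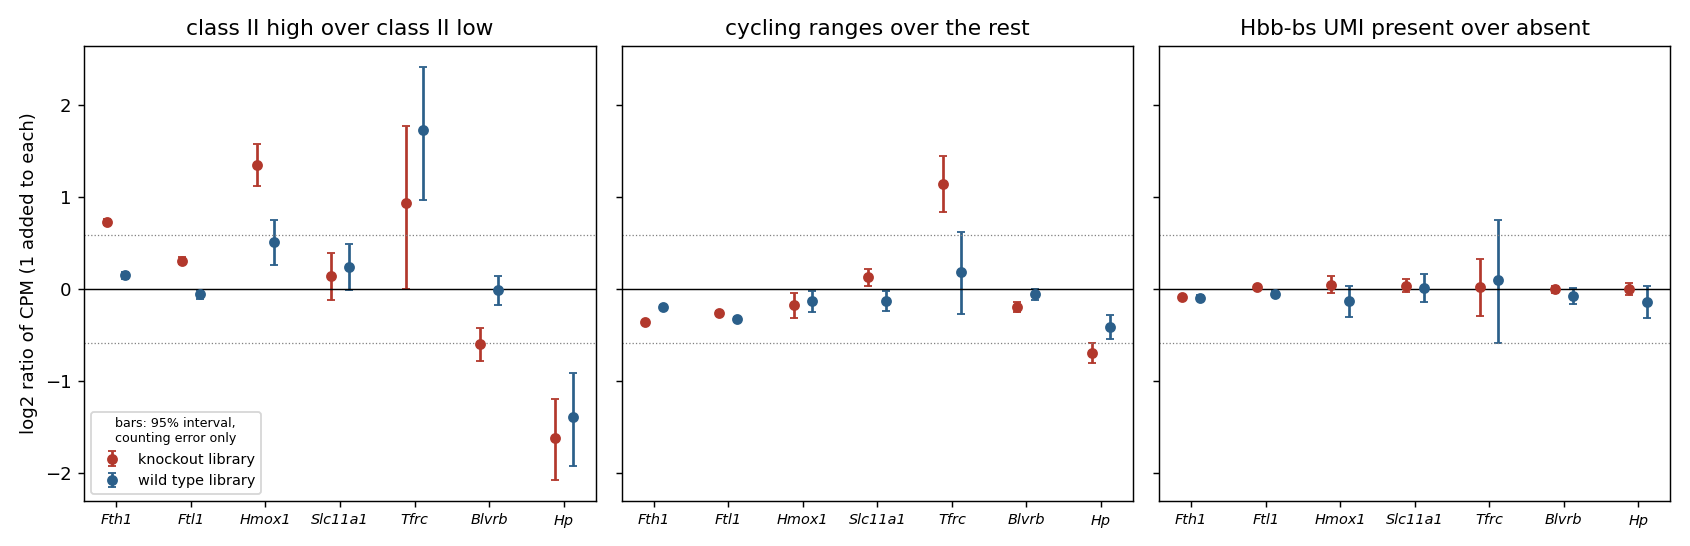
Log2 ratio of CPM with 1 added to each (y axis) for 7 members (x axis) in class II high over class II low cells, in cycling cells over the rest and in cells with over cells without an Hbb-bs UMI, per library, with 95% intervals for counting error; dotted lines mark 1.5-fold. The Hbb-bs panel stays near 0, between -0.14 and 0.10, while Hmox1 reaches 1.35 and Hp -1.62 with class II in the knockout library.

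Hbb-bs encodes a beta chain of adult haemoglobin, and its UMIs in macrophages were used to split the cells by globin transcript. Single Hbb-bs UMIs did not stand above the share in B-marker barcodes, so the split is not read as marking cells that hold globin transcript, and the members' values on its sides are a description. An Hbb-bs UMI was present in 966 of 6036 knockout cells and in 178 of 5946 wild type cells (2.99%). In reference cells it was present in 15.6% and 2.86%, and in 2.23% and 0.381% after thinning to 2000 UMIs. The share rose with depth, from 9.47% to 22.1% over the 5 bins in knockout cells and from 1.93% to 4.14% in wild type cells. Of the barcodes with B cell genes, which should lack it, 1 of 31 (3.23%) and 2 of 39 (5.13%) had an Hbb-bs UMI, at median depths of 3772 and 5395 UMIs. After the same thinning these were 1 of 26 (3.85%) and 2 of 37 (5.41%), above the reference cells of either library, though on few barcodes. Most positive cells had a single UMI: 880 of the 966 in knockout cells and 170 of the 178 in wild type cells.

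In 856 knockout and 152 wild type reference cells with an Hbb-bs UMI, Fth1 was at 3855 and 4785 CPM, beside 4091 and 5115 CPM without (-0.09 and -0.10). Hmox1 was at 68.8 and 66.7 CPM with and without in the knockout (0.04, -0.05 to 0.14) and at 111 and 122 CPM in the wild type library (-0.14, -0.31 to 0.03). Hp was at 147 CPM both with and without in the knockout library and at 101 and 111 CPM in the wild type (-0.14, -0.32 to 0.03). In all 7 detected members the log2 ratio lay between -0.14 and 0.10. Members higher were 0 in both libraries, in backgrounds of 0.0804% and 0.194%, and members lower were 0, in backgrounds of 0.0 and 0.194%. The only 4 genes past 1.5-fold in the knockout were Hbb-bs, Hbb-bt, Hba-a1 and Hba-a2, of which Hbb-bs defined the groups. The other globin genes rested on few barcodes. A single barcode held 574 of the 615 Hbb-bt UMIs. Hba-a1 and Hba-a2 had 1378 and 980 UMIs, and 5 barcodes held 1367, 450, 421, 39 and 10 UMIs of both genes together. In wild type cells they had 596 and 345 UMIs, and 2 barcodes held 715 and 224. In the smaller wild type comparison the same 4 and 14 other genes passed, 5 of them higher, such as Apoc1 at 48.1 and 15.2 CPM (1.60), and 9 lower, such as Hspb1 at 10.9 and 41.4 CPM (-1.83) and Ccl7 at 20.3 and 42.0 CPM (-1.02). These examples were chosen after their values were seen.

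Stricter globin criteria left few cells. In 71 knockout reference cells with 2 or more Hbb-bs UMIs Hmox1 was at 105 CPM (0.65), but a single barcode with 2 Hbb-bs UMIs held 56 of the 160 Hmox1 UMIs, and without it the level was 69.6 CPM and the log2 ratio 0.06. Of all cells kept, 5 knockout barcodes had 5 or more Hbb-bs UMIs (2846, 939, 697, 107 and 18), as had 2 wild type barcodes (1450 and 132). All 7 also had Adgre1 and Lyz2 UMIs. Their Hmox1 counts were 1, 1, 0, 3 and 1 in knockout cells and 3 and 0 in wild type cells, and Slc40a1 and Tfrc were at 0 in all 7. The globin-rich barcodes were thus not rich in Hmox1.

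Other genes of iron and haem handling were read from a list of 79, all of them found. Of these 36 were at 20 CPM or more in reference cells, 3 of them past 1.5-fold on the knockout side and 3 on the wild type side. Of all genes at that level 11.5% and 4.09% were. The median log2 ratio of the 36 listed genes was 0.20, beside 0.21 for all genes. Lower were Slc7a11, the cystine transporter that feeds glutathione synthesis, at 1.39 and 21.1 CPM (-3.21, -3.37 to -3.05), Cp, the ferroxidase ceruloplasmin, at 7.28 and 28.1 CPM (-1.81, -1.93 to -1.70), and Trf, the iron carrier transferrin, at 727 and 1563 CPM (-1.10, -1.12 to -1.09). Higher were Bola2, an iron-sulfur cluster chaperone, at 253 and 162 CPM (0.65), the cytochrome P450 reductase Por at 31.6 and 19.9 CPM (0.64), and the endosomal ferrireductase Steap3 at 33.7 and 22.1 CPM (0.59). The 3 lower genes were further apart between the libraries than the 3 higher ones, whose ratios the scaling shift of 0.28 takes below 1.5-fold.

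By class II level, 15 of 43 listed genes were at least 1.5-fold higher and 2 lower in knockout class II high cells, beside 25.6% and 10.2% of all genes. With the median of ratios these were 9 and 6. Among 35 listed genes in the wild type library 3 were higher and 2 lower, beside 14.0% and 5.29%, and 2 and 4 with the median of ratios. Trf was lower in both libraries, at 332 and 708 CPM in knockout (-1.09) and at 834 and 1528 CPM in wild type high and low cells (-0.87). Hif1a, the oxygen-sensing transcription factor, was at 156 and 43.4 CPM (1.82) and at 74.3 and 40.3 CPM (0.87). In knockout cells Nr1h3, a sterol-sensing nuclear receptor gene, was at 31.8 and 4.98 CPM (2.46), the haem exporter Flvcr1 at 36.1 and 6.52 CPM (2.30), the iron regulatory protein gene Aco1 at 40.3 and 12.9 CPM (1.58) and Fbxl5, the iron-sensing subunit of a ligase that degrades iron regulatory proteins, at 101 and 37.1 CPM (1.42). Bach1, the haem-sensing repressor of Hmox1, was at 235 and 133 CPM (0.82), which the scaling shift of 0.27 takes within 1.5-fold. These genes were named after their values were seen, and the knockout values rest on 62 class II high cells. By list, those higher in knockout class II high cells were 4 of 5 of iron sensing and 3 of 5 of haem capture and transport. Haem-responsive factors had 2 of 5, iron uptake 1 of 2, storage 0 of 5 and haem breakdown 2 of 4. Haem synthesis had 2 of 13 and redox targets 1 of 4, beside 25.6% of all genes. In the wild type library the first 3 lists had 1 of 4, 0 of 4 and 0 of 4. Those after them had 1 of 2, 0 of 5, 1 of 4, 0 of 8 and 0 of 4, beside 14.0%. Hmox1 and its known repressor were thus both higher in knockout class II high cells in CPM.

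In cycling knockout cells Bach1 was at 77.8 CPM beside 138 in reference cells (-0.82), and Txnrd1, a thioredoxin reductase, at 69.5 and 43.4 CPM (0.67). These were the only 2 of 37 listed genes past 1.5-fold, beside 12.8% of all genes higher and 3.08% lower. In wild type cycling cells 1 of 33 was, Slc7a11, at 13.5 and 21.1 CPM (-0.61), beside 14.4% and 2.62%. With the median of ratios the higher and lower listed genes were 0 and 2 in knockout and 0 and 5 in wild type cycling cells. Of all genes these were then 566 and 273 of 5458, and 535 and 323 of 5118. With an Hbb-bs UMI, 0 of 34 listed knockout and 0 of 33 wild type genes were past 1.5-fold. Of all genes 0.0804% were higher and 0.0 lower in the knockout, and 0.194% each way in the wild type.

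Across cells, the members did not vary as a block. The comparison used 5379 knockout and 5008 wild type reference cells thinned to 5000 UMIs, which share their library and depth, so the correlations are descriptions. Fth1 and Ftl1 had a Pearson r of 0.21 in knockout cells and 0.01 in wild type cells. Among 1959 genes, those most like Fth1 were Wfdc17, a small secreted protein gene (0.30 and 0.20), Itm2b (0.31 and 0.20) and the cystatin C gene Cst3 (0.19 and 0.16). Those most like Ftl1 were Ctsd, the lysosomal protease cathepsin D (0.24 and 0.19), H2-D1 (0.18 and 0.21) and Timd4 (0.15 and 0.13). For Hp they were Saa3, an acute phase protein gene (0.20 and 0.10), Apoe (0.20 and 0.08) and Fth1 (0.15 and 0.08). For Blvrb they were Itm2b (0.12 and 0.10), Wfdc17 (0.11 and 0.08) and Fth1 (0.18 and 0.08). For the sparser Hmox1, Slc11a1 and Tfrc no gene reached 0.10 in both libraries. The variance over the mean was 8.03 and 5.61 for Fth1 and 5.55 and 2.88 for Ftl1, and 1.22 and 1.42 for Hmox1.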

How the data were processed

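The deposited values are UMI counts for each barcode and gene, from the 10x Genomics 3′ v3 chemistry, made by the authors with cellranger 6.1.2, per the file headers. The submitters' processing notes also name Seurat 4.1.0, bcl2fastq and the mm9 assembly, without roles. All 55450 identifiers are in GENCODE M21 (GRCm38), which gave positions and untranslated regions. The members and the gene and marker lists were chosen with earlier results of these data known.

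Kept barcodes had at least 500 genes and at most 10% mitochondrial UMIs. Scrublet's automatic threshold called 1 barcode in each library and had not worked, so the highest scores were removed at 0.8% per 1000 barcodes, which took 324 knockout (5.09%) and 313 wild type barcodes (5.00%). UMIs were summed per library and range of cells and expressed as CPM. Each ratio is on the log2 scale with 1 CPM added to both sides, which understates changes of low genes, with exact conditional binomial intervals. Levels have exact Poisson and shares exact Clopper-Pearson intervals. Cells are not replicates, and no p-value was computed. Genes at 20 CPM or more on the higher side were counted at 1.5-fold. Named genes are the members, listed iron genes past that rule (in the class II comparison a choice made after their values were seen), and the 3 genes most correlated with each of Fth1, Ftl1, Blvrb and Hp, where correlations of the sparser members were too weak to name, and examples in the wild type Hbb-bs comparison. In simulated counts at the depth of the library comparison, with 4727 genes, 50 of 50 genes altered 2-fold were called, 0 of 50 altered 1.25-fold and 0 of 4527 unaltered. In the knockout class II comparison these were 49 of 50, 3 of 50 and 79 of 4753. In that of the wild type they were 46 of 50, 5 of 50 and 136 of 4339. The simulated sums held counting error only, without variation between cells. Alternatives were other filters, range limits, scalings (edgeR's TMM and the median of ratios), added CPM, depth matching and globin criteria. The work used edgeR 4.0.16 in R 4.3.3, and scanpy 1.11.5, pandas 2.3.3, scipy 1.17.1, matplotlib 3.10.9 and numpy 2.4.6 in Python 3.11.15.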

Additional observations from a re-analysis of the deposited data

Results flagged for a closer look

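In 3 comparisons a member lay on opposite sides of 0 in the 2 libraries, with intervals for counting error that exclude 0 in both. For Ftl1, class II high over class II low cells had a log2 ratio of 0.31 in knockout cells and -0.06 in wild type cells. For Slc11a1, cycling over reference cells had 0.12 and -0.14. For Ftl1, cells with over cells without an Hbb-bs UMI had 0.02 and -0.05. With 1 library per genotype these differences were not tested, and all 6 values are within 1.5-fold.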

How the results depend on the processing

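The counts here take all 7 detected members, Tfrc below 20 CPM included. Of 200 alternative counts, 186 were within 1.5 times the reported count and 14 moved. With a fold of 2 the members lower in the knockout library were 0 in place of 1, and with either other scaling 2 (Fth1 and Hmox1). In the knockout class II comparison the higher members were 1 with a fold of 2 in place of 3 (Fth1, Hmox1 and Tfrc), and the lower members 1 with a fold of 2 or with both limits at 0.5 times their value. In knockout cycling cells the lower member count was 0 with a limit of 5, with a fold of 2 and with reference cells weighted by depth, and the higher count was 0 when matched on depth. Matching on depth took Tfrc from 1.14 to -0.19 and Hmox1 from -0.18 to -1.41 there, with few cells in the shallow bins. In wild type cycling cells TMM gave 1 lower member (Hp). With 2 or more Hbb-bs UMIs, 1 knockout member was higher (Hmox1), through a single barcode, and 2 wild type members were lower (Tfrc and Hp, in 8 cells). An Hba-a1 or Hba-a2 UMI gave 1 lower wild type member (Tfrc). Of 652 alternatives for single members, 510 stayed within counting error, 141 moved and 1 reversed. Weighting by depth and the mitochondrial window were chosen after seeing the data. No paired analysis was possible because each genotype had 1 library. Tfrc rests on 10 and 16 UMIs in class II high cells and on 89 and 35 in cycling cells.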
